A study of Homo sapiens with 10 samples.

Results

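The genes described here encode the translation initiation factors (symbols beginning EIF) and elongation factors (symbols beginning EEF) of the cytosol, with the enzymes and binding partners that carry the same symbols. They were taken by name: every autosomal protein-coding row whose symbol starts with EIF or EEF followed by a digit, leaving out the eIF2 kinases named EIF2AK. The rule found 64 genes among the 78932 rows of the count table, and no measured value was used to choose them. Of these, 61 had enough counts to be tested, out of 21033 genes tested in all. The other 3 were EIF4E1B, with 0 counts in the control group and 4 in the knockdown group, EEF1E1-BLOC1S5 with 10 and 5, and EEF1AKMT4-ECE2 with 0 and 0. EIF1AX and EIF2S3 lie on the X chromosome and fall outside the rule.

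The cells were cardiomyocytes that had been differentiated from the H1 line, which is an established line of human embryonic stem cells. Both groups were transfected with a GapmeR, an antisense oligonucleotide that directs RNase H to cut the RNA it pairs with. The control group (n = 5 libraries) was given a control GapmeR and the knockdown group (n = 5) a CLIPPER GapmeR, both at 50 nM and on differentiation day 9, and RNA was taken 48 h later. No gene in the annotation used carries the name CLIPPER, so the target was not analysed here and the group labels were not checked against it. The labels name no separate cultures or differentiations, so p-values measure the spread between these samples, which may be technical.

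Initiation begins when eIF2 brings the initiator tRNA to the small ribosomal subunit. eIF1, eIF1A, eIF3 and eIF5 help that subunit to find the start codon, while eIF4F (the cap-binding protein eIF4E, the helicase eIF4A and the scaffold eIF4G) recruits the capped mRNA. eIF2B recharges eIF2 with GTP after each round, eIF5B joins the large subunit, and the eIF4E-binding proteins hold eIF4E away from eIF4G when the kinase complex mTORC1 is inactive. In elongation eEF1A delivers each aminoacyl-tRNA, eEF1B recharges eEF1A, eEF2 moves the ribosome along and eIF5A helps it through difficult stretches. Heart and skeletal muscle are known for switching from EEF1A1 to EEF1A2 as they mature.

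The libraries summed to between 32.9 and 45.1 times 1e6 counts, and levels are given as CPM (counts per 1e6 counts of a library, after scaling of the libraries to each other). Across all genes tested, 79.7% passed the test (adjusted p below 0.05), with 40.1% higher and 39.6% lower in the knockdown group, so that a change by itself sets no gene apart. The cardiomyocyte markers summed to 34811 to 47772 CPM in the control libraries and to 13341 to 21829 CPM in the knockdown libraries, and 7 of 8 fell (median log2 fold change -1.56). Smooth muscle markers went from 1146 to 2388 CPM in the control libraries to 474 to 871 CPM, fibroblast and stromal markers from 999 to 1076 CPM to 684 to 820 CPM, and endothelial markers, almost all of them KDR counts, from 26.7 to 47.1 CPM to 7.57 to 14.7 CPM. Of the 5 fibroblast and stromal markers 3 fell and 2 did not pass. Most of the drop in their sum was COL3A1, from a mean of 625 to 351 CPM, while COL1A1 stood at 377 and 371 CPM. Endoderm markers summed to at most 0.585 CPM in any library. Pluripotency markers summed to 0.127 to 0.754 CPM in the control libraries and 2.04 to 3.15 CPM in the knockdown libraries, most of it LIN28A, with POU5F1 at 19 and 16 counts and NANOG at 4 and 2. No marker was without a count in the 10 libraries. The part of these markers in the results on translation factors was not tested, and in bulk RNA fewer cells of a type and less RNA per cell cannot be told apart.

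Translation factor mRNAs moved in both directions after CLIPPER knockdown, and the split ran through complexes and through pairs of paralogues. Pairs of other genes were not compared, so the share of pairs that parts among genes at large is not known. The pairs compared here were chosen with earlier results of these data known, and their p-values do not allow for that choice. Of the 61 genes tested, 26 were higher (42.6%), 25 were lower (41%) and 10 did not pass, and their median log2 fold change was 0.05 beside 0.01 over all genes tested and -0.22 over protein-coding genes. These shares lie close to those of all genes. The groups did not overlap in 22 genes that rose and 19 that fell, where 67.3% of all genes tested passed the test without overlap. A change of at least 2-fold was called in 8 higher and 8 lower genes, where 24.3% of all genes were called higher and 24.2% lower by that much. With upper-quartile scaling in place of the trimmed mean, which shifted the median of all genes to 0.20, the split was 30 higher and 16 lower. With library totals alone it was 26 and 17.

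**Figure D1:**
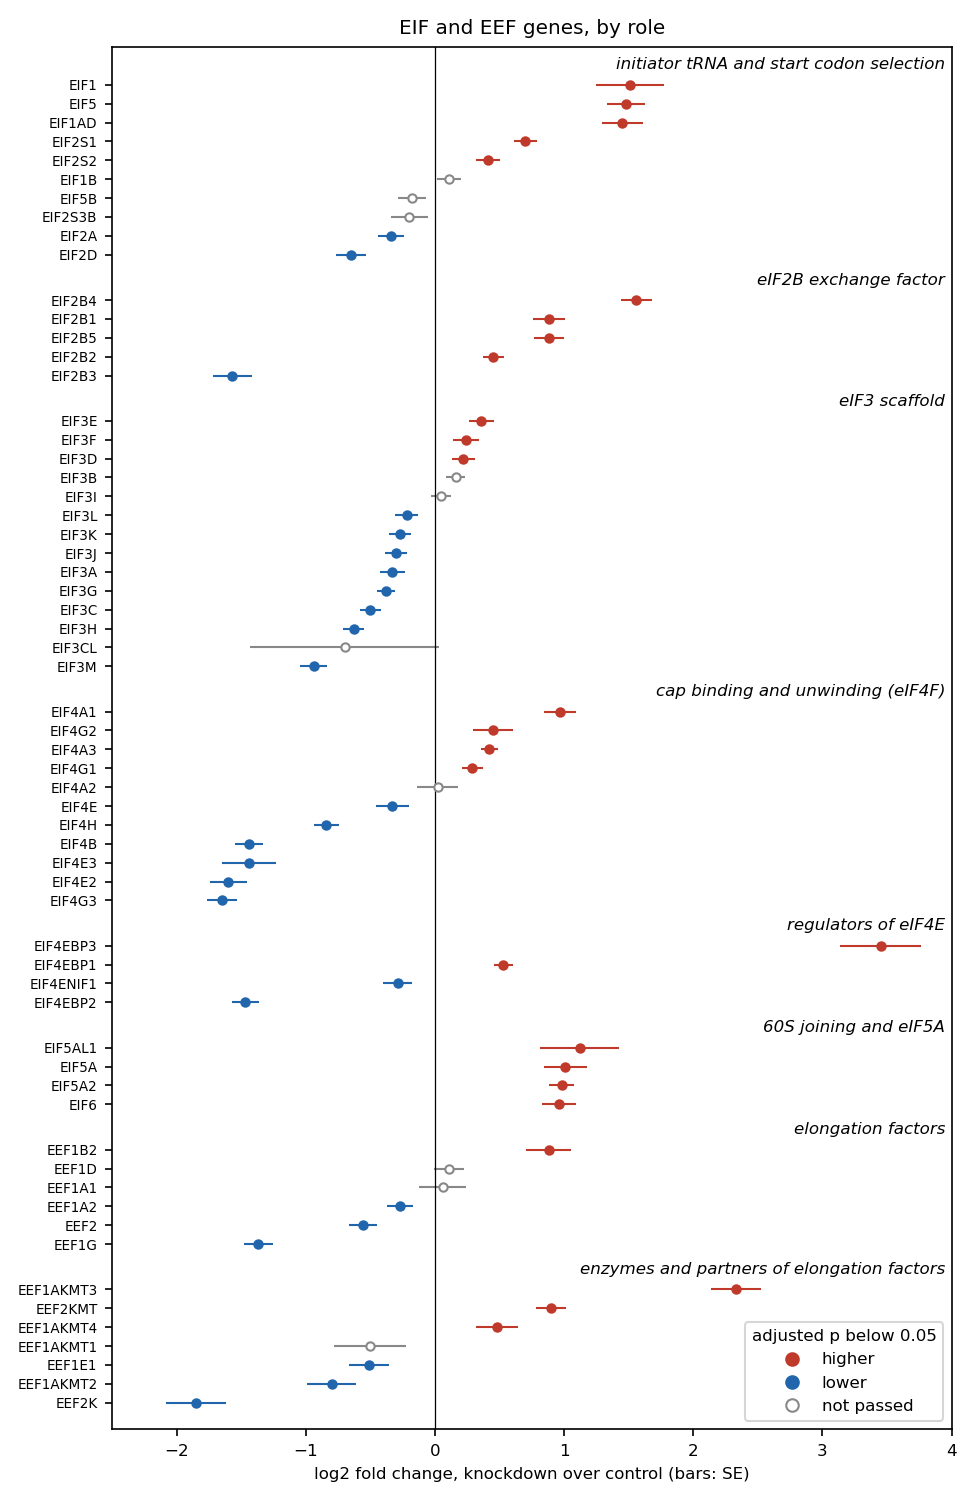
Log2 fold change of each tested EIF and EEF gene, knockdown over control, with a bar of 1 SE to each side and grouped by role; positive values are higher in the knockdown group (5 libraries a group). Values run from -1.85 for EEF2K to 3.45 for EIF4EBP3, and every role but the 60S joining and eIF5A group holds genes called in both directions.

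As a sum, the 64 genes took 1.89% ± 0.0965 of the counts in the control libraries and 1.93% ± 0.123 in the knockdown libraries (SD, n = 5 each). EEF1A1 alone made up 0.662% ± 0.0497 and 0.702% ± 0.113. Per kilobase of the canonical transcript, EEF1A1 was the most abundant of the named genes in both groups, at 1917 CPM per kb in the control group and 2005 in the knockdown group. EEF1G, at 950 CPM per kb in the control group, dropped to 368 in the knockdown group, below EEF2 at 508, EEF1B2 at 460, EIF4G2 at 426 and EIF5A at 378. In the control group EEF1G had stood above EEF2 at 748, EIF4G2 at 311, EEF1B2 at 250 and EIF5A at 187. These are levels per length, and no test was made of their order.

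Sequence upstream of the start sites is shown for both pairs in which 1 paralogue rose and the other did not pass, EIF4A1 with EIF4A2 and EIF1 with EIF1B, and for EIF4EBP2, the largest fall among the eIF4E-binding proteins. Each run is the 100 bases before the RefSeq start on GRCh38.p14, 5′ to 3′ on the strand of the gene. Capitals mark matches to a short promoter motif.
EIF4A1 (chr17:7572725-7572824, plus strand): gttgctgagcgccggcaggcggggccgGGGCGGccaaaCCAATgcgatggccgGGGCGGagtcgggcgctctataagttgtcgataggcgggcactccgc
EIF4A2 (chr3:186783477-186783576, plus strand): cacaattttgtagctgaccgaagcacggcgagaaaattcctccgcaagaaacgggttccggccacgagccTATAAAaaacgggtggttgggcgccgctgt
EIF1 (chr17:41688785-41688884, plus strand): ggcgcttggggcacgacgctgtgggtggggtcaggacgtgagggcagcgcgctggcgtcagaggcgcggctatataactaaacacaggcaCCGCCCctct
EIF1B (chr3:40309607-40309706, plus strand): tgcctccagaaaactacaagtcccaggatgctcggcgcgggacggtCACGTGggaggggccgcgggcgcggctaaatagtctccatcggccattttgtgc
EIF4EBP2 (chr10:70404045-70404144, plus strand): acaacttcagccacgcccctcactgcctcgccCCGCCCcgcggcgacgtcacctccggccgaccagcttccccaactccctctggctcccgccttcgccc
EIF4A1 held the GC box GGGCGG at -73 and -47 and the CCAAT box at -62, counted from the start site. EIF4A2 held the TATA box TATAAA at -30, EIF1 the reverse complement of a GC box at -10, EIF1B the E-box CACGTG at -54 and EIF4EBP2 the reverse complement of a GC box at -68. Only exact matches were marked. The runs of EIF1 and EIF4A1 hold the similar strings tatataa and tataag, which were not searched for. A run without a marked TATA box may thus still hold a variant of it.

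Over all the factors, the motifs did not divide the genes that rose from those that fell in any plain way. Of the 64 genes 51 were in the RefSeq promoter table and 40 had a single start there. In the 250 bases before the start, both strands searched, CCAAT was in 8 of 14 higher and 8 of 17 lower genes, where 32% of 35116 windows held it. GGGCGG was in 9 and 14, with 42.6% of all windows, and CACGTG in 5 and 6, with 6.34%. TATAAA was in 1 and 1 with 10.7%, the ETS-type motif CCGGAAG in 2 and 2 with 8.52%, and the CRE TGACGTCA in 0 and 1 with 1.65%. Of the 6 genes that did not pass, 4 held GGGCGG, 1 held TATAAA, 1 CCGGAAG, 1 CACGTG and none CCAAT or TGACGTCA. None of these motifs contains another. A match is a string of letters and was not tested as a binding site.

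Among the factors of initiator tRNA delivery and start codon selection, 5 of 10 genes rose, 2 fell and 3 did not pass, with a median log2 fold change of 0.26. EIF5 (chr14:103333544-103345025, plus strand), the GTPase-activating protein of eIF2, stood at 200, 188, 198, 192 and 168 CPM in control replicates 1 to 5 and at 434, 383, 577, 680 and 563 in the knockdown replicates. It rose 2.78-fold, a log2 fold change of 1.48 ± 0.149 (SE, adjusted p = 2e-06). EIF1 (chr17:41688885-41692668, plus strand), which holds the scanning ribosome open and rejects poor start codons, read 262, 242, 249, 247 and 207 CPM and then 412, 347, 844, 1025 and 816. Its knockdown libraries split into replicates 1 and 2, which lie nearer the controls, and replicates 3 to 5, at 816 CPM or more, and the fitted rise was 2.85-fold (log2 1.51 ± 0.265 SE, adjusted p = 1.9e-04). EIF1AD, grouped here only as an EIF1A-domain protein, went from 23.9, 21.3, 24.2, 21.9 and 20.9 CPM to 52.5, 39.5, 71.3, 71.1 and 73.0, a log2 fold change of 1.45 ± 0.158 (SE, adjusted p = 3.5e-06). None of these 3 genes overlapped between the groups.

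EIF1B (chr3:40309707-40312424, plus strand), a close paralogue of EIF1, did not follow it. It read 108, 112, 84.9, 103 and 91.3 CPM in the control libraries and 97.0, 112, 108, 114 and 107 in the knockdown libraries, which overlap, with a log2 fold change of 0.11 (adjusted p = 0.3). With upper-quartile scaling that value became 0.31 and passed (adjusted p = 0.0082), still under the 1.73 of EIF1 on the same scale. The ratio of EIF1 to EIF1B counts within a library, which no scaling can alter, rose 2.43-fold (exact permutation test, two-sided p = 0.00794, adjusted p = 0.0119 over 9 pairs). For eIF2 itself, EIF2S1, the alpha subunit that stress kinases phosphorylate, rose from 93.5 ± 5.26 to 152 ± 16.9 CPM (SD, n = 5 each), a log2 fold change of 0.70 ± 0.0921 (SE, adjusted p = 1.6e-05). EIF2S2, the beta subunit, rose by a log2 fold change of 0.41 (adjusted p = 0.0012). EIF2S3B, a retrogene copy of the gamma subunit, had 66 to 94 counts a library and a log2 fold change of -0.20 (adjusted p = 0.21). EIF2D, which can bring tRNA to the ribosome without GTP, went from 18.8, 21.0, 21.9, 20.4 and 22.5 CPM to 13.7, 16.5, 13.2, 10.5 and 12.4 and fell by 0.65 on the log2 scale (adjusted p = 2.1e-04). EIF2A, another tRNA-binding factor, fell by 0.34 (adjusted p = 0.0082) with overlapping groups. That call was lost with upper-quartile scaling (adjusted p = 0.16) and with library totals alone (adjusted p = 0.13). EIF5B, the GTPase of subunit joining, had a log2 fold change of -0.18 (adjusted p = 0.14). It became -0.26 (adjusted p = 0.016) without knockdown replicate 2.

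The eIF2B complex, the exchange factor of eIF2, split between its subunits: 4 of 5 genes rose and EIF2B3 fell. EIF2B4 (chr2:27364352-27370338, minus strand), the delta subunit, stood at 37.2, 35.4, 33.6, 33.6 and 33.9 CPM in the control libraries and at 90.2, 76.6, 113, 122 and 111 in the knockdown libraries. The lowest knockdown library lies above the highest control by a wide margin, and the fitted rise was 2.96-fold (log2 1.56 ± 0.122 SE, adjusted p = 2.9e-07). EIF2B3 (chr1:44850522-44986722, minus strand), the gamma subunit, read 19.5, 18.5, 14.2, 18.9 and 17.1 CPM and then 5.74, 8.12, 5.68, 4.48 and 5.67. It was 2.96-fold lower, a log2 fold change of -1.57 ± 0.152 (SE, adjusted p = 1.4e-06). The catalytic epsilon subunit EIF2B5 rose from 58.0 ± 2.49 to 107 ± 18.5 CPM, and the regulatory alpha subunit EIF2B1 from 28.6 ± 0.671 to 52.7 ± 10.2 CPM (SD, n = 5 each), each with a log2 fold change of 0.88. EIF2B2, the beta subunit, rose by a log2 fold change of 0.45 (adjusted p = 2.1e-04). Of these genes EIF2B3 has the longest span by far, at 136 kb.

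**Figure D2:**
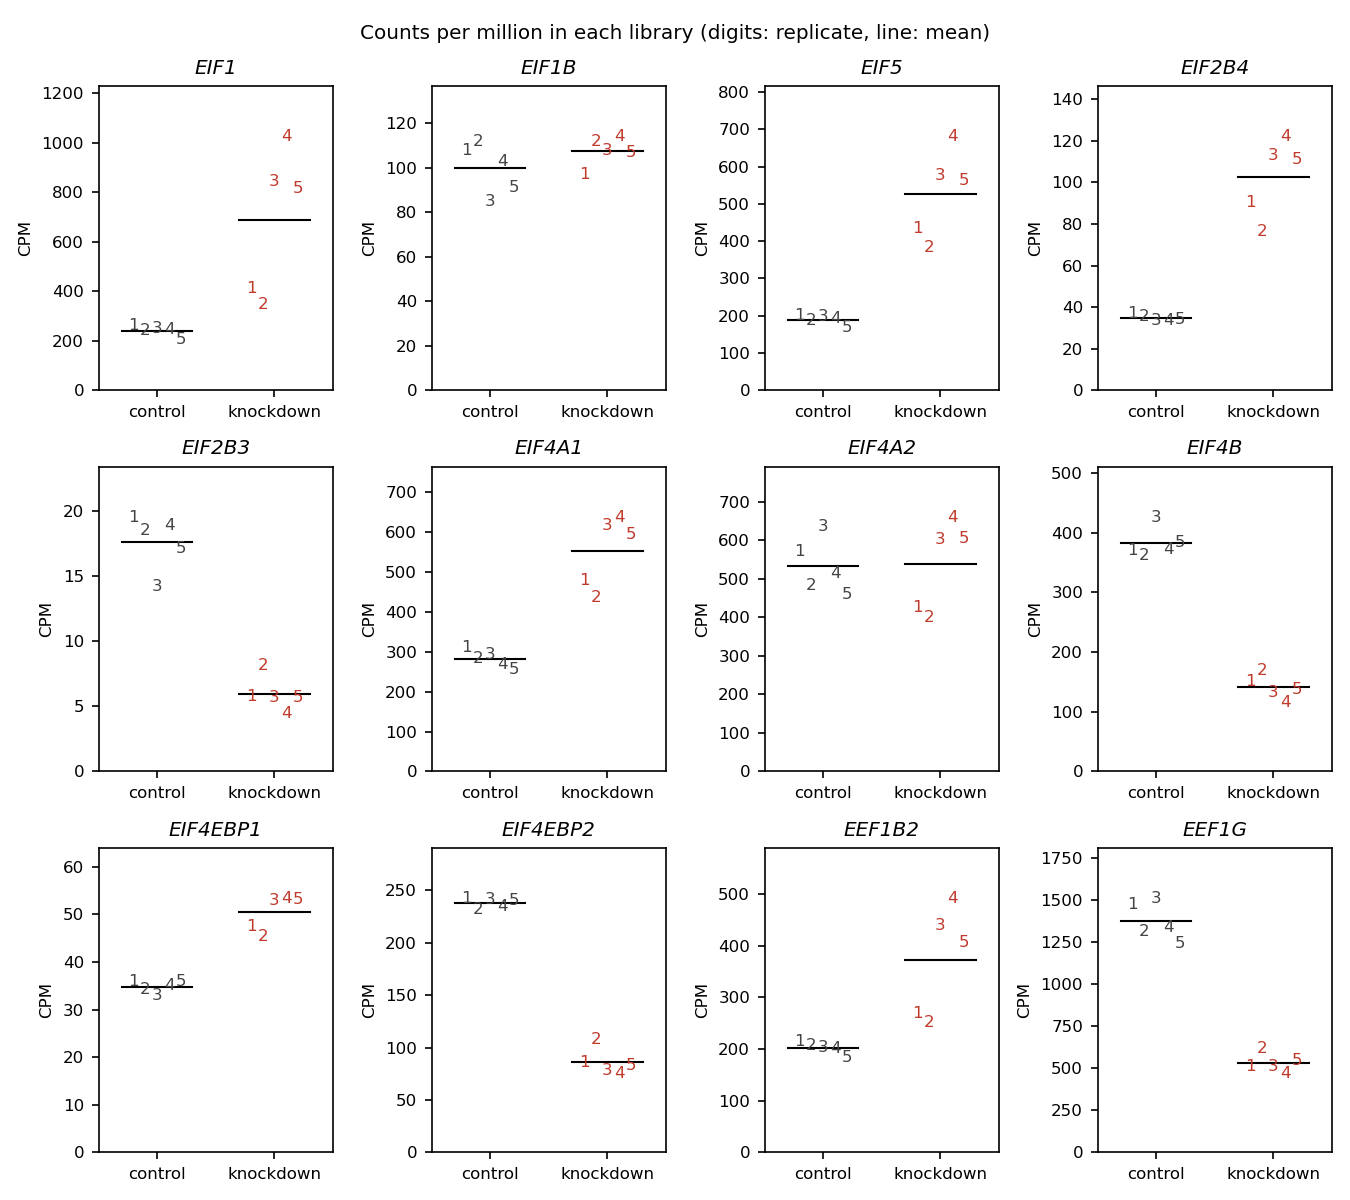
CPM of 12 translation factor genes in each of the 5 control and 5 knockdown libraries, each drawn as its replicate number, with a line at each group's mean. Values of EIF5, EIF2B4, EIF4A1, EIF4EBP1 and EEF1B2 lie higher in all knockdown libraries, those of EIF2B3, EIF4B, EIF4EBP2 and EEF1G lower, and those of EIF1B and EIF4A2 overlap, while EIF1 spreads from 347 to 1025 CPM in the knockdown group.

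The eIF3 complex, the large scaffold of the small subunit, moved little and mostly down. Of its 14 genes 3 rose, 8 fell and 3 did not pass, and log2 fold changes ran from -0.94 to 0.36 around a median of -0.28. No gene of this group reached 2-fold. EIF3M (chr11:32583798-32606264, plus strand) changed most, from 149, 145, 142, 141 and 131 CPM to 73.8, 93.6, 70.1, 63.0 and 69.4, which is 1.91-fold lower (log2 -0.94 ± 0.105 SE, adjusted p = 4.7e-06). EIF3H, which forms a module with EIF3F and EIF3M, fell by 0.63 on the log2 scale (adjusted p = 1.9e-05), EIF3C by 0.50 (adjusted p = 1.0e-04) and EIF3G, the RNA-binding subunit, by 0.38 (adjusted p = 2e-04). EIF3A, EIF3J, EIF3K and EIF3L fell by 0.22 to 0.33. Those 4 smaller falls were all lost with upper-quartile scaling, and 3 of them (not EIF3K) with library totals alone. With upper-quartile scaling 5 genes of the complex rose and 4 fell (median -0.09).

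EIF3E rose the most in the complex. It stood at 227, 216, 260, 218 and 219 CPM in the control libraries and 278, 249, 308, 323 and 310 in the knockdown libraries. Its rise of 0.36 ± 0.0992 on the log2 scale (SE, adjusted p = 0.0047) came with overlapping groups, since control replicate 3 lies above knockdown replicate 2. EIF3F, with a log2 fold change of 0.24 (adjusted p = 0.043), and EIF3D, which can itself bind the cap of some mRNAs, with 0.22 (adjusted p = 0.039), also rose with overlap. Both calls were lost without any 1 of several libraries, EIF3D at an adjusted p of up to 0.14 and EIF3F of up to 0.13, and both were lost with the replicate number as a block (EIF3D adjusted p = 0.089, EIF3F adjusted p = 0.056). EIF3B had a log2 fold change of 0.16 (adjusted p = 0.061) and EIF3I of 0.05 (adjusted p = 0.56). EIF3CL, a near-identical copy of EIF3C, read 1.04, 3.23, 9.58, 2.45 and 1.02 CPM in the control libraries and 2.70, 2.53, 2.20, 3.06 and 0 in the knockdown libraries. Reads of EIF3C and EIF3CL can be assigned to either, so the sum is safer. It went from 435 ± 15 to 307 ± 14.7 CPM (SD, n = 5 each), a log2 ratio of -0.51.

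The group of eIF4F subunits, their helpers and their paralogues held 4 genes that rose, 6 that fell and 1 that did not pass (median log2 fold change -0.33). The 4 rises include EIF4A3 and EIF4G2, which are grouped here only as paralogues of eIF4F subunits. Paralogues of the same subunit parted from each other. EIF4A1 (chr17:7572824-7579006, plus strand), the main RNA helicase of scanning, stood at 310, 282, 292, 269 and 256 CPM in the control libraries and 479, 436, 617, 636 and 593 in the knockdown libraries. It rose 1.96-fold (log2 0.97 ± 0.123 SE, adjusted p = 1.3e-05). EIF4A2 (chr3:186783205-186789897, plus strand), the paralogue known from muscle and brain, read 570, 483, 634, 514 and 459 CPM and then 426, 400, 601, 658 and 605. The groups overlap, the log2 fold change was 0.02 (95% interval -0.33 to 0.36, adjusted p = 0.93), and its sign turned under several settings. In the control libraries EIF4A2 thus exceeded EIF4A1, with a log2 ratio of EIF4A1 to EIF4A2 counts of -0.91 ± 0.13, and in the knockdown libraries the counts were near 1 to 1, at 0.05 ± 0.096 (SD, n = 5 each). The shift was 1.95-fold (exact permutation test, two-sided p = 0.00794, adjusted p = 0.0119). These are ratios of counts. Per kilobase the levels were 160 and 282 CPM per kb in the control group and 314 and 285 in the knockdown group. The exons of EIF4A1 share 47.4% of their bases on the same strand with other annotated genes, among them a lncRNA, ENSG00000264772, that went from 1626 to 12518 counts.

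EIF4A3, the paralogue that sits in the exon junction complex, rose from 57.3 ± 2.38 to 76.7 ± 1.9 CPM (SD, n = 5 each; log2 0.42, adjusted p = 8.4e-05). Both cofactors of the helicase fell. EIF4B (chr12:53006282-53042215, plus strand) went from 370, 362, 425, 372 and 384 CPM to 151, 169, 133, 115 and 138, which is 2.71-fold lower (log2 -1.44 ± 0.111 SE, adjusted p = 2.6e-07). EIF4H, which resembles EIF4B in its RNA-binding domain, fell from 344 ± 13.3 to 192 ± 22.8 CPM (SD, n = 5 each; log2 -0.84, adjusted p = 5.3e-06). Neither gene's groups overlapped.

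Among the scaffolds, EIF4G1 (chr3:184314495-184335358, plus strand) stood at 470, 454, 436, 432 and 422 CPM in the control libraries and 523, 518, 550, 573 and 541 in the knockdown libraries, a rise of 0.29 ± 0.0842 on the log2 scale (SE, adjusted p = 0.0069). That call did not pass without the filter on low counts (0.25, adjusted p = 0.062). EIF4G3 (chr1:20806292-21177285, minus strand), a paralogue that also binds eIF4E, fell in every knockdown library, from 133, 144, 142, 144 and 151 CPM to 46.0, 59.0, 42.3, 38.2 and 41.4. It was 3.14-fold lower (log2 -1.65 ± 0.114 SE, adjusted p = 1.3e-07). EIF4G2, a shorter relative that lacks the eIF4E site, read 1226, 1177, 1186, 1180 and 1138 CPM and then 1293, 1175, 1766, 2034 and 1815. Its rise of 0.45 (adjusted p = 0.016) was larger in replicates 3 to 5 than in replicate 1, and knockdown replicate 2 lies within the controls. The ratio of EIF4G1 to EIF4G3 counts rose 3.88-fold (exact permutation test, two-sided p = 0.00794, adjusted p = 0.0119). The log2 ratio of EIF4G1 to EIF4G2 differed by -0.13 (exact permutation test, two-sided p = 0.333, adjusted p = 0.375).

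The cap-binding proteins fell, and the EIF4E2 and EIF4E3 mRNAs by far more than that of EIF4E. EIF4E, the limiting cap-binding subunit, read 49.2, 50.0, 43.9, 45.3 and 47.2 CPM in the control libraries and 41.8, 49.2, 31.9, 31.7 and 33.3 in the knockdown libraries. Replicate 2 overlaps the controls, and the log2 fold change was -0.33 (adjusted p = 0.029), a call lost with library totals alone (-0.25, adjusted p = 0.21), with upper-quartile scaling (-0.13, adjusted p = 0.27), and without control replicate 2 or any 1 of knockdown replicates 3 to 5 (adjusted p up to 0.084). Without knockdown replicates 1 and 2 together it was -0.56. EIF4E2 (chr2:232550659-232583644, plus strand), a cap-binding repressor that works with GIGYF2, went from 78.0, 77.9, 78.8, 78.7 and 82.5 CPM to 28.8, 36.1, 23.7, 19.2 and 22.8. It was 3.02-fold lower (log2 -1.60 ± 0.145 SE, adjusted p = 8.9e-07). EIF4E3, a cap-binding protein with muscle expression, went from 16.6, 18.5, 14.1, 16.6 and 16.3 CPM to 5.87, 9.99, 5.04, 3.94 and 5.20 (log2 -1.44 ± 0.209 SE, adjusted p = 4e-05). Within a library the ratio of EIF4E to EIF4E2 counts rose 2.44-fold and that of EIF4E to EIF4E3 rose 2.25-fold (exact permutation tests, two-sided p = 0.00794 each, adjusted p = 0.0119).

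The eIF4E-binding proteins, the repressors that mTORC1 switches off, moved in opposite directions. EIF4EBP2 (chr10:70404145-70428618, plus strand) had the highest CPM of them in the control libraries, at 242, 232, 241, 235 and 240, and read 85.5, 108, 78.0, 75.2 and 82.9 in the knockdown libraries. The control values lie close together, and the gene was 2.77-fold lower (log2 -1.47 ± 0.104 SE, adjusted p = 1.5e-07). EIF4EBP1 rose 1.45-fold, from 36.0, 34.2, 33.0, 35.1 and 35.9 CPM to 47.5, 45.4, 52.9, 53.3 and 53.1 (log2 0.53 ± 0.076 SE, adjusted p = 3.3e-05). The ratio of EIF4EBP1 to EIF4EBP2 counts rose 4.03-fold (exact permutation test, two-sided p = 0.00794, adjusted p = 0.0119). EIF4EBP2 kept more counts than EIF4EBP1, with a mean log2 ratio of -2.77 in the control group and -0.76 in the knockdown group. Per kilobase of the canonical transcript the order was the reverse. EIF4EBP1 stood at 42.1 CPM per kb in the control group and 61 in the knockdown group, and EIF4EBP2 at 31.8 and 11.5. EIF4EBP3 (chr5:140547662-140549576, plus strand), a family member known to be induced by stress transcription factors, had 37 counts in all control libraries together and 418 in the knockdown libraries. It went from 0.0764, 0.209, 0.239, 0.0808 and 0.355 CPM to 2.33, 2.28, 1.92, 1.97 and 2.17, an 11.0-fold rise (log2 3.45 ± 0.313 SE, adjusted p = 8.5e-07). Its exons share 73.2% of their bases with the readthrough gene ANKHD1-EIF4EBP3, which had 6150 and 6043 counts. EIF4ENIF1, which carries eIF4E into the nucleus, had a log2 fold change of -0.29 (adjusted p = 0.037) with overlapping groups. That call was lost with upper-quartile scaling (adjusted p = 0.41) and with library totals alone (adjusted p = 0.27). It was also lost without any 1 of several libraries (adjusted p up to 0.1 there).

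**Figure D3:**
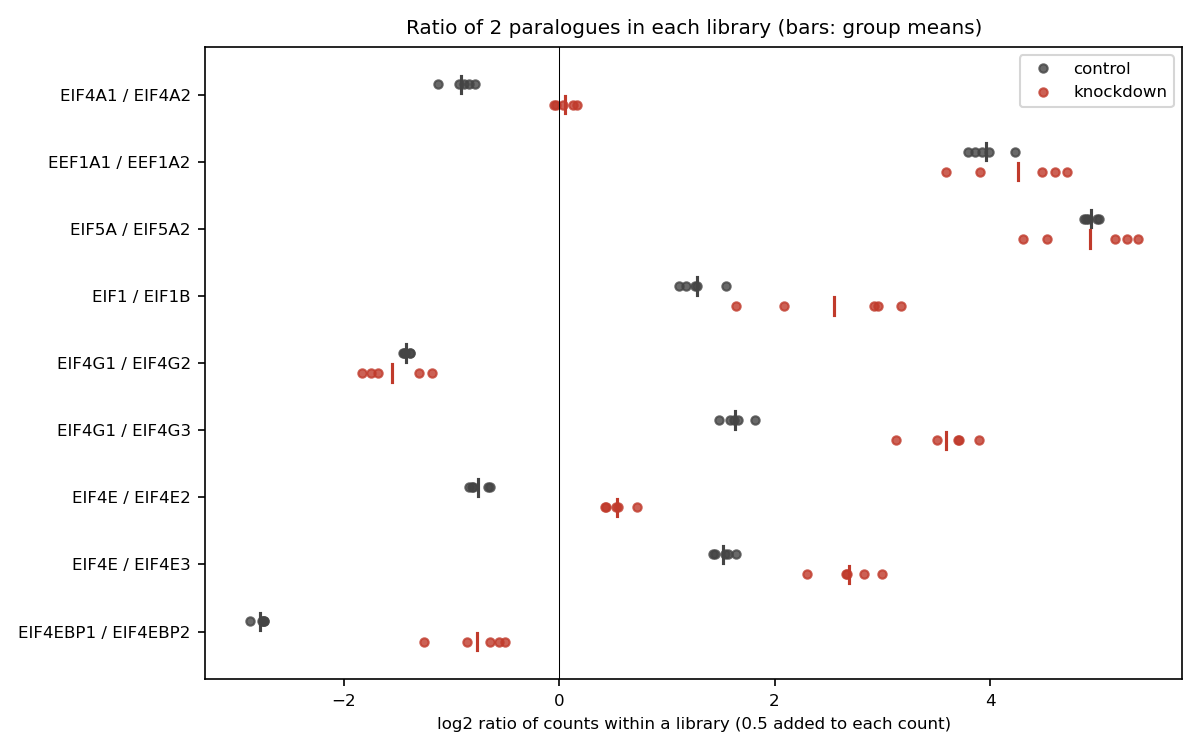
Log2 ratio of the counts of 9 paralogue pairs in each library (0.5 added to each count), control and knockdown, with a bar at each group's mean. In 6 pairs all 5 knockdown libraries lie above all 5 controls, and the ratios of EEF1A1 to EEF1A2, EIF5A to EIF5A2 and EIF4G1 to EIF4G2 overlap.

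The genes of eIF5A and EIF6 all rose, 4 of 4, with log2 fold changes of 0.96 to 1.12 and a median of 1.00. EIF5B, which also acts in subunit joining, is counted above with start codon selection and did not pass. EIF5A (chr17:7306999-7312463, plus strand), the hypusine-bearing factor that relieves stalled ribosomes, went from 262, 246, 228, 224 and 223 CPM to 352, 341, 565, 619 and 512, a 2.02-fold rise (log2 1.01 ± 0.167 SE, adjusted p = 1.1e-04). EIF5A2 (chr3:170888418-170908644, minus strand), its rarer paralogue, went from 8.68, 8.25, 7.07, 7.65 and 7.00 CPM to 15.2, 17.2, 14.6, 14.9 and 14.3 (log2 0.98 ± 0.0978 SE, adjusted p = 1.7e-06). The log2 ratio between them was 4.94 ± 0.0591 in the control group and 4.93 ± 0.477 in the knockdown group (SD, n = 5 each; exact permutation test, two-sided p = 0.976). That mean hides a wide spread. EIF5A was highest in knockdown replicates 3 to 5 and EIF5A2 in replicate 2. EIF6, which keeps the large subunit from joining too early, rose from 68.2 ± 6.45 to 132 ± 25.8 CPM (SD, n = 5 each; log2 0.96 ± 0.132 SE, adjusted p = 2.7e-05). EIF5AL1, a near-copy of EIF5A with 8 to 31 counts a library, read 0.357, 0.325, 0.239, 0.242 and 0.330 CPM and then 0.367, 0.425, 0.780, 0.939 and 0.819 (log2 1.12, adjusted p = 0.0048), and part of its counts may be reads of EIF5A.

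Of the 6 elongation factor genes 1 rose, 3 fell and 2 did not pass, with a median log2 fold change of -0.10. EEF1A1 (chr6:73489308-73525587, minus strand) stood at 6977, 6403, 7454, 6561 and 6266 CPM in the control libraries and 5267, 4918, 8050, 8790 and 8184 in the knockdown libraries. Knockdown replicates 1 and 2 lay below every control and replicates 3 to 5 above every control, so the group mean describes neither set. The log2 fold change was 0.06 (95% interval -0.33 to 0.46, adjusted p = 0.75), and 0.30 (adjusted p = 0.0044) without replicates 1 and 2, a setting chosen after seeing the data. The annotation holds 49 EEF1A1 pseudogenes, and they took 0.53% of the counts of that family. EEF1A2, the form of adult muscle, went from 482, 461, 396, 429 and 394 CPM to 351, 408, 331, 337 and 367, with overlap. Its log2 fold change of -0.27 (adjusted p = 0.025) did not pass with upper-quartile scaling (-0.07, adjusted p = 0.48), with library totals alone (adjusted p = 0.12), with a mean of at least 1 CPM required (adjusted p = 0.051) or without any 1 of knockdown replicates 1, 3 and 4 (adjusted p = 0.051 to 0.073). The log2 ratio of EEF1A1 to EEF1A2 differed by 0.30 (exact permutation test, two-sided p = 0.222, adjusted p = 0.286).

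The eEF1B exchange complex, which recharges eEF1A, split between its subunits. EEF1G (chr11:62559596-62574086, minus strand), the scaffold subunit, went from 1475, 1313, 1507, 1334 and 1239 CPM to 509, 620, 513, 471 and 548. It was 2.58-fold lower (log2 -1.37 ± 0.112 SE, adjusted p = 4e-07), and the lowest control library, at 1239 CPM, lay far above the highest knockdown library, at 620 CPM. EEF1B2 (chr2:206159585-206162928, plus strand), the catalytic beta subunit, went the other way, from 215, 206, 203, 202 and 184 CPM to 268, 252, 440, 491 and 407, a 1.84-fold rise (log2 0.88 ± 0.176 SE, adjusted p = 5.5e-04). EEF1D, the delta subunit, had a log2 fold change of 0.11 (adjusted p = 0.4), which became 0.26 (adjusted p = 0.0016) without knockdown replicates 1 and 2. Nearly all of the EEF1G exons, 99.7% of their bases, are shared with the readthrough gene ENSG00000255508, which had 547 and 220 counts. EEF2 (chr19:3976056-3985463, minus strand), the translocase, read 2441, 2241, 2599, 2261 and 2267 CPM and then 1507, 1487, 1594, 1635 and 1797. The groups do not overlap, and it was 1.47-fold lower (log2 -0.56 ± 0.109 SE, adjusted p = 4.3e-04).

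Enzymes that act on the elongation factors gave both the largest fall and one of the largest rises. EEF2K (chr16:22206278-22288738, plus strand), the kinase that inhibits eEF2 by phosphorylation, went from 33.3, 34.4, 32.7, 31.9 and 42.0 CPM to 10.9, 16.1, 7.36, 6.03 and 7.78, 3.6-fold lower (log2 -1.85 ± 0.229 SE, adjusted p = 1.1e-05). EEF1AKMT3 (chr12:57771492-57782541, plus strand), a lysine methyltransferase of eEF1A, had 25 to 46 counts in a control library and 137 to 263 in a knockdown library. Its levels were 0.917, 0.743, 0.746, 0.970 and 1.17 CPM and then 5.68, 3.30, 3.82, 5.03 and 5.07, a 5.02-fold rise (log2 2.33 ± 0.197 SE, adjusted p = 5.2e-07). It shares exon bases with another coding gene on its strand, ENSG00000257921, with 173 and 38 counts, and overlaps METTL1 on the other strand. The strand setting of the counting is not given in the sources used here, and without strand the reads of EEF1AKMT3 and METTL1 cannot be told apart. EEF2KMT, the methyltransferase of eEF2, rose from 8.13 ± 1.09 to 15.2 ± 1.58 CPM (SD, n = 5 each; log2 0.90, adjusted p = 1.4e-05), and EEF1AKMT4 rose by a log2 fold change of 0.48 (adjusted p = 0.015), which did not pass without the filter on low counts (adjusted p = 0.055) or without knockdown replicates 1 and 2 (0.33, adjusted p = 0.085). EEF1AKMT2 fell by 0.80 (adjusted p = 0.0019), and EEF1E1, a scaffold protein of the tRNA synthetase complex, by 0.51 (adjusted p = 0.0087) with overlap. The EEF1E1 call was lost with library totals alone (adjusted p = 0.055) and with upper-quartile scaling (adjusted p = 0.051). EEF1AKMT1 had a log2 fold change of -0.50 (adjusted p = 0.12), and of -0.80 (adjusted p = 0.0059) without knockdown replicate 2.

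Knockdown replicates 1 and 2 were the closest to the controls in most of these genes. Among the 51 genes called, replicate 2 was the nearest in 36 (70.6%, and 68.8% over all genes called), and replicates 1 and 2 were both nearer than the other 3 in 38 (74.5%, and 56.6% over all genes called). On the first principal component of all genes, which held 85.2% of the variance, knockdown replicate 2 stood at -49.48, replicate 1 at -93.26 and the other 3 from -118.79 to -140.31, with the controls at 101.84 to 107.72. EIF1, EIF5A, EEF1B2 and EIF4G2 show the step between replicates 1 and 2 and replicates 3 to 5, and EEF1G does not. With both replicates left out, 27 genes were higher and 27 lower.

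Direction followed the length of the gene, as it did for coding genes at large. Across the 61 genes the Spearman correlation of log2 fold change with annotated span, introns included, was -0.66, and over 14777 protein-coding genes it was -0.60. With the span of the canonical transcript both were -0.62. These are correlations across genes of the same 10 libraries, and genes are not independent replicates. Of 15 translation factor genes that span up to 10 kb, 11 rose and 2 fell, with a median of 0.96, where 66.5% of coding genes of that span rose and 13.6% fell, with a median of 0.77. From 10 to 30 kb, 13 of 26 rose and 8 fell (coding genes 48.9% and 29.1%). From 30 to 100 kb, 1 of 16 rose and 12 fell (23.2% and 57%), and of the 4 genes above 100 kb 1 rose and 3 fell (5.65% and 85.1%). The short genes that fell were EEF2 and EIF3G, and the long gene that rose was EIF3E, whose annotated span is 281 kb while its canonical transcript spans 47.5 kb. Some of the pairs that parted differ in span in the same order: EIF4G1 spans 20.9 kb and EIF4G3 371 kb, and EIF2B4 spans 5.99 kb and EIF2B3 136 kb. EIF4A1 and EIF4A2 are close in span, at 6.18 and 6.69 kb. EIF1 is longer than EIF1B, at 3.78 and 2.72 kb. EIF4EBP1, which rose, spans 29.8 kb, and EIF4EBP2, which fell, is shorter at 24.5 kb. EIF4E2, at 33 kb, fell more than the longer EIF4E, at 49.9 kb, and so did EIF4E3, at 79.4 kb. The part of gene length in these results was not tested.

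**Figure D4:**
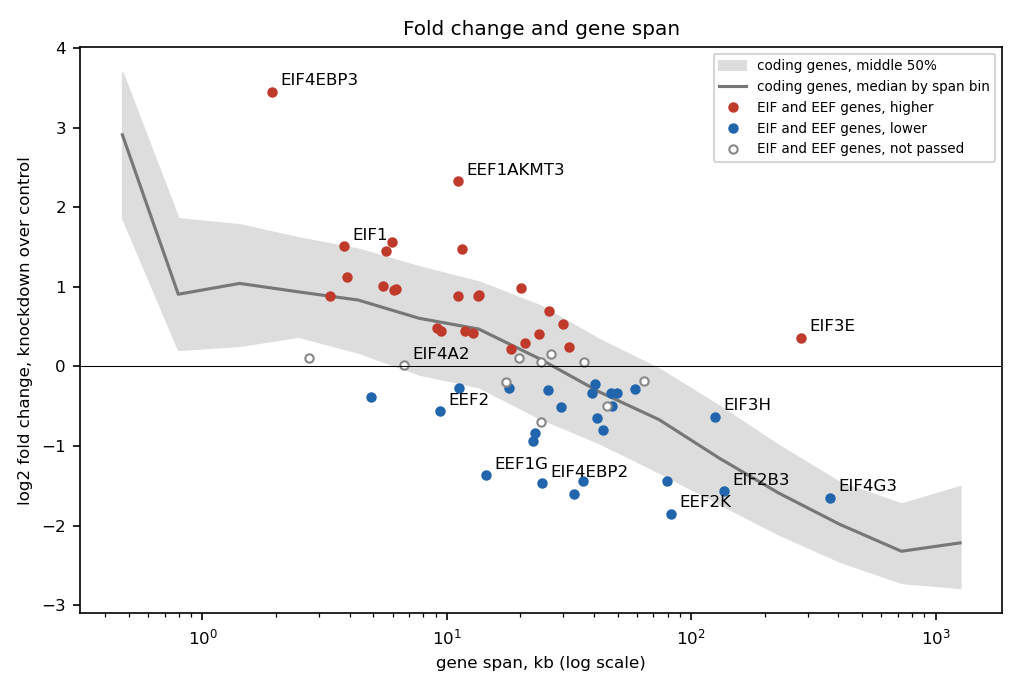
Log2 fold change, knockdown over control, against annotated gene span in kb on a log axis, for the 61 translation factor genes (points) over the median and quartiles of protein-coding genes in bins of span. The coding median drops from above 0.8 near 4.34 kb to below -1.9 near 406 kb. Of the labelled genes, EIF4EBP3 at 3.45, EEF1AKMT3 at 2.33, EIF3E at 0.36 and, narrowly, EIF1 at 1.51 lie above the quartiles of their bins. EEF1G at -1.37, EEF2 at -0.56, EIF4EBP2 at -1.47 and EEF2K at -1.85 lie below. EIF2B3, EIF4G3, EIF4A2 and EIF3H lie within.

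Genes that act on these factors were compared from lists that were chosen with earlier results of these data known. Over all genes tested 40.1% were higher and 39.6% lower. Of the falling genes named from these lists, RPTOR spans 422 kb, EEFSEC 255 kb, GIGYF2 163 kb and EIF2AK3 135 kb, while TSC2 spans 41.5 kb and GSPT1 48 kb. Among coding genes above 100 kb 85.1% fell, with a median log2 fold change of -1.45. The part of length in these falls was not tested. The eIF2 kinases and phosphatase subunits held 4 higher and 4 lower of 9. EIF2AK3, the kinase of endoplasmic reticulum stress, fell from 29.1 ± 4.77 to 9.21 ± 2.09 CPM (SD, n = 5 each; log2 -1.65, adjusted p = 1.5e-06), and EIF2AK2, the kinase that senses double-stranded RNA, from 72.0 ± 6.11 to 27.7 ± 6.24 CPM (log2 -1.38, adjusted p = 2.2e-06). PPP1CC, a catalytic subunit of the phosphatase, rose with a log2 fold change of 0.86 (adjusted p = 3.1e-06) and PPP1R15B, the constitutive subunit that directs it to eIF2, with 0.98 (adjusted p = 6.4e-06).

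mTORC1 and its inputs were split as well, with 11 higher and 9 lower of 22 and a median of 0.16. RPTOR, the subunit that presents the eIF4E-binding proteins to the kinase, fell from 57.2 ± 3.36 to 9.28 ± 2.33 CPM (SD, n = 5 each; log2 -2.62, adjusted p = 4.4e-08). TSC2, which restrains mTORC1, fell by 1.37 (adjusted p = 7.1e-08), and LAMTOR4 and SESN3, on the amino acid branch, rose by log2 fold changes of 1.66 (adjusted p = 2.8e-07) and 1.25 (adjusted p = 9.9e-07). Of 11 kinases and repressors of eIF4F 3 rose and 8 fell. GIGYF2, the partner of EIF4E2, fell from 97.5 ± 4.1 to 23.3 ± 8.18 CPM (SD, n = 5 each; log2 -2.06, adjusted p = 9.6e-07), and MKNK1, an eIF4E kinase, fell by 1.08 (adjusted p = 3.8e-06). MKNK2, the other eIF4E kinase, rose by 0.82 (adjusted p = 7.3e-05), and PDCD4, an inhibitor of eIF4A, rose from 44.8 ± 6.33 to 100 ± 16.7 CPM (log2 1.16, adjusted p = 4.5e-06).

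Of 9 genes of poly(A) binding, termination and recycling 1 rose and 3 fell. ABCE1, which splits ribosomes after termination, rose by a log2 fold change of 1.23 (adjusted p = 4.9e-07), and GSPT1, a release factor, fell by 0.62 (adjusted p = 6.2e-05) and DENR by 0.42 (adjusted p = 5.1e-04). Of 10 enzymes that modify eIF5A and eEF2 or serve selenocysteine 5 rose and 3 fell. DPH2, of the diphthamide pathway that modifies eEF2, rose from 18.8 ± 1.16 to 95.3 ± 32.5 CPM (SD, n = 5 each; log2 2.34, adjusted p = 9.6e-07) and DPH1 by 1.13 (adjusted p = 2.1e-06). EEFSEC, the elongation factor of selenocysteine, fell by 1.93 (adjusted p = 4.3e-07), and DNAJC24, also of the diphthamide pathway, by 1.04 (adjusted p = 1.1e-05). DHPS, the first enzyme of hypusine synthesis, had a log2 fold change of -0.03 (adjusted p = 0.8). Of 11 mitochondrial translation factors 6 rose and 5 fell, with MTRF1L at 0.92 (adjusted p = 1.3e-06), MTRFR at 1.12 (adjusted p = 1.7e-06), GFM1 at -0.98 (adjusted p = 1.7e-06) and MTFMT at -1.13 (adjusted p = 2.1e-06).

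The cytosolic ribosomal protein genes differed from the factors in being one-sided. Of 74 genes 65 rose, none fell and 9 did not pass, with a median log2 fold change of 0.78 beside 0.05 for the EIF and EEF genes. The count of rises was 56 to 72 over all settings tried, and no setting gave a fall that passed. Of the 74 genes, 33 rose without overlap of the groups, where 67.3% of all genes tested passed without overlap. Rises were called in 40.1% of all genes tested and in 66.5% of coding genes that span up to 10 kb. RPL7A rose from 392 ± 24.5 to 839 ± 194 CPM (SD, n = 5 each; log2 1.10, adjusted p = 3.2e-05) and RPL35A from 247 ± 12.2 to 534 ± 149 CPM (log2 1.11, adjusted p = 7.6e-05). EEF1B2 and EIF5A, with log2 fold changes of 0.88 and 1.01, lie within the range of the ribosomal protein genes (-0.11 to 1.32). EIF1, at 1.51, lies above it, while EEF1G and EIF4B, at -1.37 and -1.44, went the other way. Both ribosomal protein genes are short, at 3.21 kb and 6.42 kb, and the difference between the lists was not tested.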

How the data were processed

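Ribosome-depleted, stranded total RNA libraries (5 control, 5 knockdown) were sequenced, per the labels' protocols. The deposited table holds raw counts per gene, whole numbers, which the authors made with Trim Galore 0.65, STAR 2.7.0 on GRCh38 with GENCODE 38 and HTSeq, per the submitters' processing notes and design text. For HTSeq, neither version nor strand setting is given in the sources used here. Names and positions came from GENCODE 44 on the same assembly (61481 of 78932 identifiers matched). All pairs of libraries differed by more than sampling noise (chi-square over degrees of freedom at least 4.13).

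Each gene was tested by quasi-likelihood in edgeR 4.0.16, R 4.3.3 (TMM, filterByExpr, Benjamini-Hochberg over 21033 genes, threshold 0.05, common biological coefficient of variation 19.2%). An SE is the log2 fold change over the square root of F. Scaling by TMM sets fold changes relative to the bulk of genes. Paralogue log2 ratios (0.5 added to each count) were compared with two-sided exact permutation tests over 252 labelings, whose smallest p is 0.00794, adjusted over 9 pairs. Data were simulated with the same group sizes, and 20615 genes were tested. The test found 26.9% of 67 genes set to differ 1.5-fold, 77.6% of 67 at 2-fold and 98.5% of 66 at 4-fold, and 6 of its 141 calls were false. Only those genes were set to differ there, while 79.7% of genes tested passed in the real data, so these rates may not carry over.

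Genes named with values in every library were those with the smallest adjusted p of each role and direction, the paralogue pairs, and genes past 2-fold without overlap, with EEF2 and EIF3CL added after their values were seen. From each pathway list up to 2 rising and 2 falling genes with the smallest p were named. DHPS, LIN28A, COL3A1 and COL1A1 were added after their values were seen. The genes, pairs and lists were chosen with earlier results of these data known. Alternatives were DESeq2 1.42.0 and its size factors, upper-quartile factors, library totals, limma-voom (limma 3.58.1), other filters, a replicate block, removal of mitochondrial genes and of single libraries, and, chosen after seeing the data, removal of knockdown replicates 1 and 2 together.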

Additional observations from a re-analysis of the deposited data

Results flagged for a closer look

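In 6 of 122 groups of 5 libraries, 1 library stood apart from the others by more than 0.71 of the range of its group, and chance gives about 1 in 20. EEF2K was highest in control replicate 5, at 42 CPM, and EIF4E2 was highest in the same library, at 82.5 CPM. EIF3E was highest of the controls in replicate 3, at 260 CPM, and EIF3CL too, at 9.58 CPM. EIF3CL was lowest in knockdown replicate 5, at 0 CPM. EIF2S3B was highest of the knockdown libraries in replicate 5, at 2.46 CPM. In EEF2K and EIF4E2 the library lies on the far side of the control group from the knockdown libraries.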

How the results depend on the processing

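The counts of 26 higher and 25 lower genes became 27 and 24 with DESeq2's size factors, 30 and 16 with upper-quartile factors, 26 and 17 with library totals alone, 27 and 25 with DESeq2, 26 and 25 with limma-voom, 22 and 23 with no filter beyond 1 count, 26 and 22 with a mean of at least 1 CPM, and 26 and 25 without mitochondrial genes. With 1 library left out they were 24 to 26 and 21 to 27. With the replicate number as a block they were 24 and 24, and EIF3D, EIF3F and EIF3L lost their calls. The labels do not say whether the numbers pair the libraries. Deviations from the group means correlated at -0.17 to 0.221 between same-numbered libraries and at -0.206 to 0.159 between the others. These values cannot decide whether there was pairing. Signs turned for EIF5B (0.02 with upper-quartile factors), EIF4A2 (-0.03 with no filter, -0.00 with the block, -0.06 to 0.10 with 1 library left out), EEF1A1 (-0.02 without knockdown replicate 4, and up to 0.16), EIF3CL (0.10 without control replicate 3, and down to -0.96) and the log2 ratio of EIF5A to EIF5A2 (-0.12 to 0.15 with 1 library left out, 0.03 from edgeR's fold changes). None of these passed in the main test or in a tested setting where the sign turned. EIF5B did pass without knockdown replicate 2 (-0.26, adjusted p = 0.016). Without knockdown replicates 1 and 2 together, EIF5B (-0.36, adjusted p = 9.2e-05) and EEF1A1 (0.30, adjusted p = 0.0044) passed. The cause was not tested. The 6 paralogue ratios that passed kept their direction and their call with each library left out (smallest possible p 0.0159). EIF1 has at least 8171 counts in every library, while EIF4EBP3 and EEF1AKMT3 rest on few control counts.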
